A study of Mus musculus with 18 samples.

Results

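The cytosolic ribosomal protein genes encode the proteins that, with ribosomal RNA, make up the large (60S) and small (40S) subunits of the ribosome. They were taken as the protein-coding genes whose symbol is Rpl, Rps or Rplp followed by a number, with or without a final a, x or y, together with Rpsa. The rule used names and gene types only and found 76 genes, 46 of the large and 30 of the small subunit, among 55183 genes measured in cells and the same 76 among 19464 genes measured in brain. All 76 passed the filter on low values in both tables. Fau, Rps3a1, Rack1 and the paralogs Rpl22l1, Rps27l, Rpl36al and Rpl7l1 fall outside the name rule and are described separately. RNA sequencing covered 18 mouse libraries, 3 in each of 6 groups. The cells are PTCP53 304, a line of Sonic hedgehog (SHH) medulloblastoma that carries Ptch1+/- and Trp53-/- in every group, the controls included. They received CT-179, which inhibits OLIG2 (a transcription factor of the oligodendrocyte lineage), or vehicle, and were collected after 144 h on culture day 6 or after 24 h on culture day 1. The brain groups are whole brains of Ptch1+/- mice given CT-179 or vehicle from postnatal day 3 until they were collected on postnatal day 15, and the letters IR in their genotype label have no explanation there. Brain libraries with CT-179 as their treatment label have the word vehicle in their titles, so the direction in brain rests on the treatment label. The cell line is 1 line, and whole brain mixes many cell types. Whether replicates came from separate cultures or animals is not stated, and p-values therefore measure a spread between libraries that may be technical. In bulk RNA, fewer cells of a type and less RNA per cell cannot be told apart.

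Ribosomal proteins are made in near-equal numbers, 1 copy of most per ribosome, and their mRNAs are short, abundant and controlled together. Most of these mRNAs start with a cytosine and a run of pyrimidines, the 5′ terminal oligopyrimidine (TOP) motif, through which the kinase complex mTORC1 and the RNA-binding protein LARP1 set their translation and stability. MYC raises transcription of ribosome genes, p53 responds when ribosomal proteins are left unassembled, and growing tumour cells, SHH medulloblastoma included, need high ribosome output. An RNA level measured here is an amount of mRNA and says nothing of how much protein was made.

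The stretches around the annotated start sites of 8 members whose values are given in detail show how far the pyrimidine run varies (RefSeq, GRCm38.p6; 40 bases before and 20 from the start, read 5′ to 3′ on the gene's strand). Capitals mark a pyrimidine run at the start site or the letters CCGGAAG, a core bound by ETS-family factors. A run at the start site is a C followed by at least 4 pyrimidines that begins within 10 bases of the annotated start.
Rps6 (chr4:86857348-86857407, minus strand): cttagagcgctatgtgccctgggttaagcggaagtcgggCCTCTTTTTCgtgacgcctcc
Rps27 (chr3:90213629-90213688, minus strand): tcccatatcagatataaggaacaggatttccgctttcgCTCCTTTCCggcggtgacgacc
Rpl39 (chrX:37085203-37085262, minus strand): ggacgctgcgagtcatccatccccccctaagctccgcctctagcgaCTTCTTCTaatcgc
Rpl36a (chrX:134585614-134585673, plus strand): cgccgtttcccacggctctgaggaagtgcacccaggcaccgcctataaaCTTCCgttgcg
Rpl11 (chr4:136053374-136053433, minus strand): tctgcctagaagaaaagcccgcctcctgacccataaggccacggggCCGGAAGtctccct
Rpsa (chr9:120127726-120127785, plus strand): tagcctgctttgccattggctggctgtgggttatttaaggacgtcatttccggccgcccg
Rpl4 (chr9:64173347-64173406, plus strand): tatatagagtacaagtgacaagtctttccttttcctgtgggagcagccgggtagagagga
Rpl22 (chr4:152325686-152325745, plus strand): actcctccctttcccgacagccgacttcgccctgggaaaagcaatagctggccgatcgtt
Rps6, Rps27, Rpl39 and Rpl36a have such a run near position 41 of the printed stretch, and Rpl11 has the ETS letters there. In the wider window of 300 bases Rps6, Rpl39 and Rpsa hold the ETS letters too, and Rpl4 and Rpl22 have neither a run at the start site nor those letters. The printed stretch of Rpl4 does hold a longer pyrimidine run, which begins more than 10 bases before the annotated start and so was not counted. RefSeq windows of 300 bases were matched for 56 of the 76 members and compared with all 27025 windows of the same length. A pyrimidine run at the start site stood in 31 of 56 members (55.4%), against 30.8% of all windows, and a run that holds CTTTC stood in 12 of 56 (21.4%), against 3.0%. Searched on both strands, the letters CCGGAAG were found in 22 of 56 (39.3%), against 9.12% of all windows. The letters AAGATGGC, bound by YY1, were found in 4 of 56 (7.14%), against 2.88%. A TATA box (TATAAA) was found in 5 of 56 (8.93%), against 14.2%, and an E-box (CACGTG), the letters MYC binds, also in 5 of 56, against 7.24%. A match is a description of letters, not of binding, and its absence says only that the letters are not in the window. For the pyrimidine run, absence says only that none begins within 10 bases of the annotated start, so it depends on that annotation.

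Values are FPKM, fragments per kilobase of gene scaled by library depth, and a fold change is the difference of mean log2(FPKM + 1), which slightly understates the change of low genes. A gene was called when its limma p-value, adjusted by Benjamini-Hochberg over all genes tested, was under 0.05. The spacing of low FPKM values implied 2.84e+07 to 6.84e+07 counted fragments for a library of cells and 1.71e+07 to 6.09e+07 for one of brain, and no member had fewer than 387 implied fragments in any library. These totals are approximate, at 1.18 to 1.34 times the total that the scale of the FPKM itself implies. The library CT-179 144 h replicate 2 stood apart, with Pearson r of 0.941 and 0.943 with its group over genes tested, against at least 0.996 for every other pair of cell replicates, and brain vehicle replicate 2 was the shallowest library. Over the 76 members alone, vehicle 24 h replicate 3, the shallowest cell library, had an r of 0.992 with each of the others of its group, against at least 0.998 for the remaining pairs outside CT-179 144 h replicate 2. The main results on the members that rest on the first or the second of these libraries are given with and without it. Marker levels are given with every library only. Of 10 listed SHH medulloblastoma markers, 5 or 6 reached 1 FPKM in each cell group, Zic1, Ptch1 and Gli1 among them, while Atoh1 and Barhl1, which mark the granule neuron lineage, were below 0.02 FPKM; all listed markers of neurons and glia reached 1 FPKM in brain. Markers of microglia, endothelium, choroid plexus and red blood cells were at or near 0 in the cells, and 4 of 5 listed oligodendrocyte precursor markers reached 1 FPKM in every cell group.

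The 76 genes held a larger share of all FPKM in cells than in brain, and in cells a larger share at 24 h than at 144 h. They took 7.38%, 12.3% and 7.49% of the summed FPKM in CT-179 cells at 144 h, against 6.66%, 6.46% and 6.71% in vehicle cells at 144 h. At 24 h they took 12.2%, 12.2% and 12.1% in CT-179 cells, against 11.2%, 11.3% and 10.95% in vehicle cells. In brain they took 4.88%, 4.03% and 4.42% in CT-179 mice, against 4.26%, 4.41% and 5.14% in vehicle mice. The CT-179 and vehicle groups did not overlap at 24 h or at 144 h, with CT-179 higher at each time, and they overlapped in brain. Small-subunit genes made up 40.4% to 42.7% of the members' summed FPKM in all 18 libraries.

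**Figure D1:**
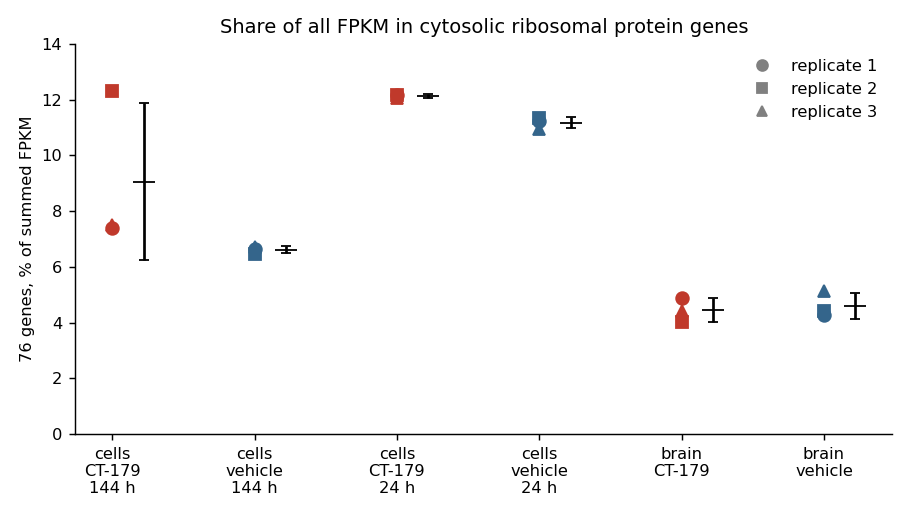
Share of all FPKM held by the 76 genes, in percent, for each of the 18 libraries; symbols are replicates, the horizontal tick is the group mean and the bar 1 SD (n = 3). One CT-179 library at 144 h lies at 12.3%, near the 24 h libraries, while the other two lie at 7.38% and 7.49%.

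Levels differed widely among genes whose proteins are, for the most part, needed in equal number. In vehicle cells at 144 h the group means ran from 42.7 to 836 FPKM with a median of 233, and in vehicle cells at 24 h from 75.2 to 1556 FPKM with a median of 424. In vehicle brain they ran from 25.6 to 977 FPKM with a median of 199. Rplp1, an acidic protein of the stalk that recruits translation factors, was the highest member in both tissues, at 1556 ± 112 FPKM in vehicle cells at 24 h and 977 ± 171 FPKM in vehicle brain (SD, n = 3 each). Rpl8, near the peptidyl transferase centre, and Rps4x came next in cells, and Rps15 and Rps29 next in brain. Rps15a, Rps20 and Rpl34 were lowest in cells, and Rpl34, Rpl29 and Rpl26 were lowest in brain. The order of the genes by level was shared, with Spearman rho of 0.96 to 0.997 between cell groups and 0.82 to 0.86 between a cell group and a brain group over 76 genes, a description in which the gene lengths used for FPKM are common to all groups. Those lengths count all annotated exons of a gene and so exceed the main mRNA for some members: with levels set per kilobase of main mRNA, the order had a rho of 0.76 to 0.84 with the order by FPKM. Vehicle cells at 24 h were above vehicle brain in 74 of 76 genes, with a median ratio of 2.26, but the 2 tables were made separately and no test was run across them. Reads from near-identical copies are a limit for some members. A row named Rps2-ps13 averaged 668 FPKM in cells, against 188 FPKM for Rps2, and Rpl38-ps2 averaged 165 FPKM against 204 FPKM for Rpl38. In brain, Rpl34-ps1 averaged 32.7 FPKM against 26.9 FPKM for Rpl34, so the levels of Rps2, Rpl38, Rpl34 and Rps18, whose copy Rps18-ps6 averaged 44.5 FPKM in brain against 62.1 FPKM, are uncertain.

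In CT-179 144 h replicate 2 the ribosomal protein mRNAs were far above the other replicates of its group. All 76 members were higher there than in replicates 1 and 3, by 1.29 to 2.97 times their mean with a median of 2.17 times, and 65 were higher than in every CT-179 24 h library. The share of all genes higher there is not given here, so these counts cannot be set against it. Other short protein-coding genes were higher with this library as well. In their shortest class by exonic length, the median CT-179 log2 fold change at 144 h was 0.36 with every library. Without replicate 2 it was 0.11. Rps14, a small-subunit protein near the mRNA exit whose loss in humans is linked to 5q- syndrome, had 517, 1567 and 539.5 FPKM in the CT-179 144 h replicates, the largest ratio of replicate 2 to the other replicates among the 76. Rpl4, which lines the peptide exit tunnel, had 524, 689 and 547 FPKM there. The summed FPKM of all genes was also higher in replicate 2, at 425478, against 308014 to 348964 in the 11 other cell libraries. On the log2 scale the members' median difference from the vehicle 144 h mean was 0.21, 1.37 and 0.24 in the 3 CT-179 replicates. The part of this library in each result below is given by the values without it.

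In vehicle cells, all 76 genes were lower at 144 h than at 24 h (median log2 fold change -0.82), and 67 of them fell past the test, against 32.4% of all genes tested. In all 76 genes every vehicle library at 144 h was below every vehicle library at 24 h, a separation seen in 42.9% of all genes. CT-179 144 h replicate 2 enters this fit only through the spread: without it the folds were the same and all 76 genes fell, against 43.4% of all genes. The median was -0.80 for the 46 large-subunit genes and -0.88 for the 30 small-subunit genes.

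Rpsa, a small-subunit protein also known as the laminin receptor, fell the most, to 263, 247 and 262 FPKM in vehicle cells at 144 h, against 661, 659 and 631 FPKM in vehicle cells at 24 h (log2 fold change -1.33 ± 0.24 SE, adjusted p = 0.00054). Rps25, which is needed for some forms of internal initiation, had 150.2, 148 and 154 FPKM at 144 h, against 372, 386 and 353 FPKM at 24 h (-1.29 ± 0.21, adjusted p = 0.00032). Both sets of 3 lie far apart, with no overlap and little spread inside a group. Rps6, the substrate of S6 kinase downstream of mTORC1, had 137, 136 and 135 FPKM at 144 h, against 277, 282 and 271 FPKM at 24 h (-1.02 ± 0.17, adjusted p = 0.00033). Rpl4 had 469, 464 and 488 FPKM at 144 h, against 1012, 1006 and 1092 FPKM at 24 h (-1.13 ± 0.10, adjusted p = 3.4e-06). Rplp0, the base of the stalk, had 578, 560.5 and 585 FPKM at 144 h, against 1098, 1088 and 1046 FPKM at 24 h (-0.91 ± 0.19, adjusted p = 0.0015). Each of the 3 was lower in every 144 h library, with a narrow range inside both groups. Rpl12 and Rpl35 of the large subunit and Rps16 of the small subunit had log2 fold changes of -1.22, -1.17 and -1.21. Rpl5 and Rpl11, which with 5S ribosomal RNA bind the p53 inhibitor Mdm2, had log2 fold changes of -0.79 and -0.96. Rpl11 had 95.5, 92.7 and 97.2 FPKM at 144 h, against 185, 183 and 190.4 FPKM at 24 h. Rps4x and Rpl3, the protein near the peptidyl transferase centre, had -0.80 and -0.78, and Rpl39 had -0.61 (adjusted p = 0.041). Rps27, a zinc-finger protein of the small subunit, had 316, 290.2 and 311 FPKM at 144 h, against 515, 530.4 and 468 FPKM at 24 h, with no overlap (-0.72, adjusted p = 0.069).

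A few members moved less than the rest. Rpl22, an RNA-binding protein of the large subunit that cells can do without, had 115, 113 and 113 FPKM at 144 h, against 127, 125 and 121 FPKM at 24 h. Its log2 fold change of -0.13 ± 0.13 did not pass the test with every library (adjusted p = 0.42), and passed without CT-179 144 h replicate 2 (SE 0.024, adjusted p = 0.00029). Rps14 had 455, 422 and 465 FPKM at 144 h, against 595, 599 and 539 FPKM at 24 h (-0.37, adjusted p = 0.36 with every library). The other genes past the test only without that library were Rps9, Rps21, Rps27, Rps28, Rpl24, Rpl36 and Rpl37a, chosen for naming after their values were seen. When each library was scaled to the members' own median, with every library kept, 25 of 76 genes differed between the times relative to the set, 17 lower and 8 higher. The share of all genes called under that scaling is not given here, so the count cannot be set against it. Rpsa (-0.49), Rps25 (-0.45), Rpl12 (-0.38) and Rps16 (-0.37) were lowest relative to the set. Rpl22 (0.71), Rps14 (0.47) and Rpl36 (0.34) were highest relative to it.

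**Figure D2:**
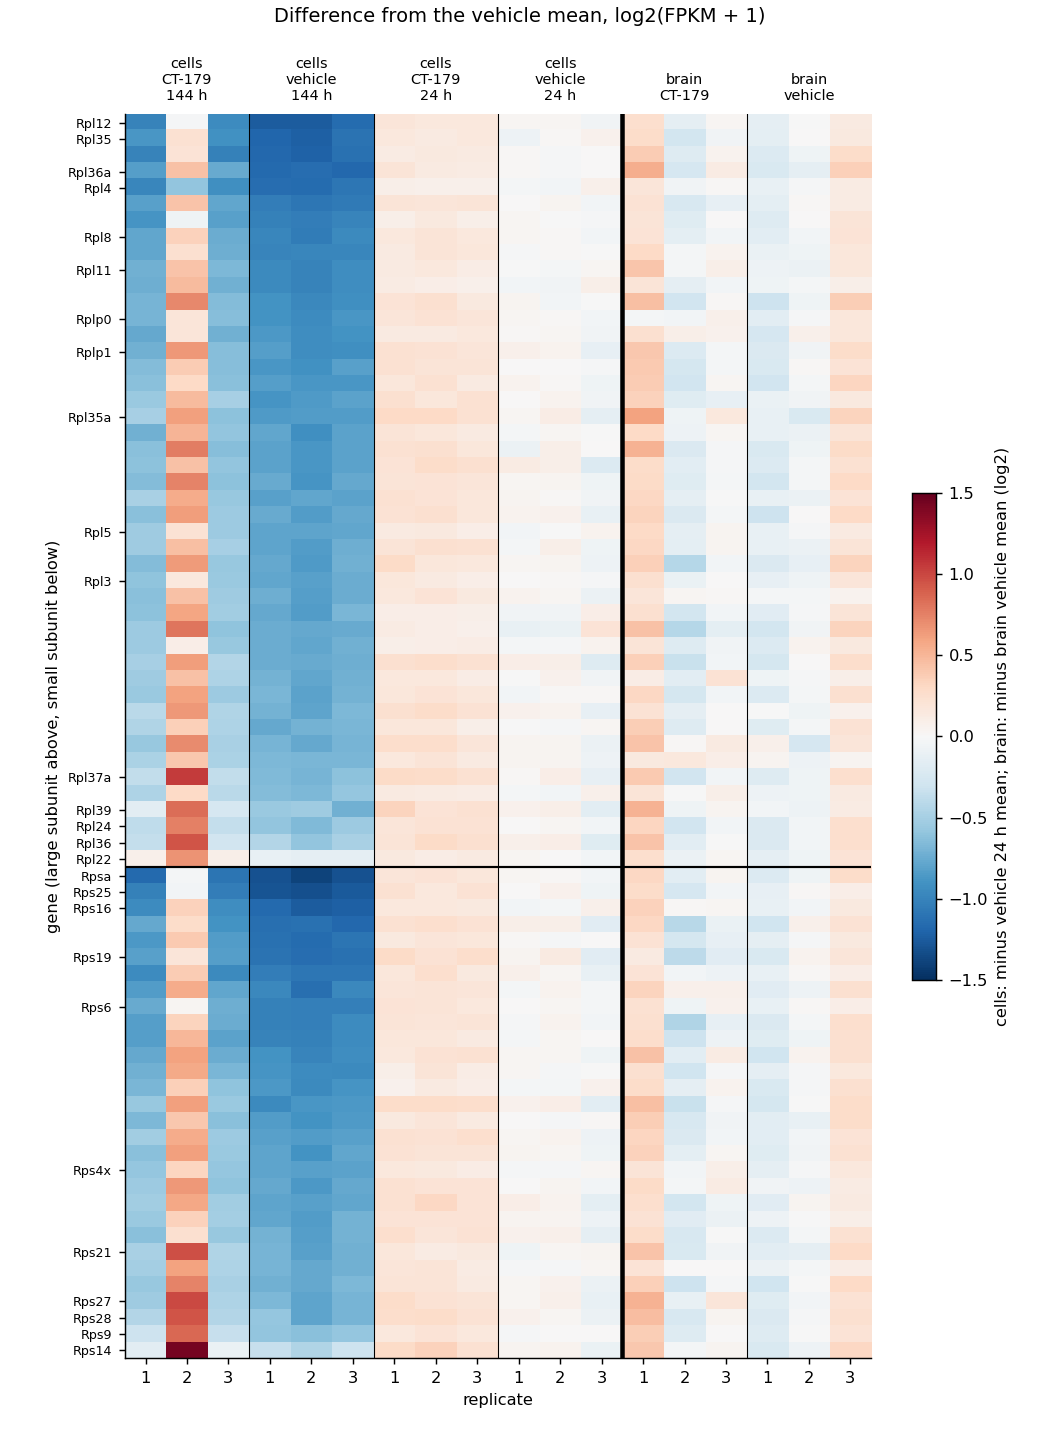
Each of the 76 genes (rows; large subunit above the line, small below, each ordered by the change with time, with some of the genes named in the text labelled) in each library (columns), as log2(FPKM + 1) minus the mean of the vehicle 24 h cells for the cell libraries and minus the mean of the vehicle brains for the brain libraries. Vehicle cells at 144 h are blue in every row but that of Rpl22, which is near white, replicate 2 of CT-179 at 144 h is red or near white in nearly all rows, and the brain libraries differ mainly by library.

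Other genes of ribosome production were also lower at 144 h in vehicle cells. With every library 32.4% of all genes tested fell and 34.1% rose, and without CT-179 144 h replicate 2 these shares were 43.4% and 44.2%. Of 66 listed ribosome biogenesis genes, 65 fell with every library and 65 without CT-179 144 h replicate 2, with a median log2 fold change of -1.11. Nop56, a box C/D snoRNP protein, had -1.66 and Rrp12, which serves export of pre-ribosomal subunits, had -1.37. Of 22 other genes with TOP mRNAs (translation factors and their like), 15 fell, and 20 without that library, with a median of -0.62. Among them Hnrnpa1 had -1.10, Pabpc1 had -0.92 and Nap1l1 had -1.21, while Eif4a2, a paralog of the initiation helicase, rose by 1.04. Of 9 chaperones and importers of ribosomal proteins, 6 fell, and 8 without that library, with the importer Ipo5 at -1.64. Lists of other abundant short genes moved less: 59 of 78 mitochondrial ribosomal protein genes fell (median -0.60), 21 of 35 proteasome subunits (median -0.47) and 23 of 73 nuclear respiratory chain genes (median -0.32), and without that library 72 of 78, 33 of 35 and 60 of 72 fell. With every library the share of respiratory chain genes that fell was near that of all genes. The median of all genes tested was 0.01. Among 15 listed genes of mTORC1 and LARP1, 3 rose and 5 fell, or 6 and 7 without that library, shares near or below those of all genes. Larp1 fell, at -1.05, and Ddit4, an inhibitor of mTORC1, rose, at 1.65. Among 8 listed genes of MYC and of p53 in ribosome stress, Myc fell, at -1.76, and Mycn and the cell cycle inhibitor Cdkn1a rose, at 1.56 and 1.53; the cells carry Trp53-/-. Of the 8 measured ribosomal proteins outside the name rule, 6 fell, and 7 without that library. Rps3a1 (-0.90) and Rpl22l1 (-0.81) fell with every library, and Fau, a fusion that holds Rps30, had -0.57 (adjusted p = 0.095). Rps27l, a paralog of Rps27, had 59.4, 52.0 and 60.3 FPKM at 144 h, against 130.4, 148 and 155 FPKM at 24 h (-1.32, adjusted p = 0.0012).

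Marker levels moved with time as well. The summed FPKM of 5 astrocyte markers, 4 of them at 1 FPKM or more at 144 h, was 125 to 141 in vehicle cells at 144 h, against 2.35 to 2.47 in vehicle cells at 24 h. That of 5 oligodendrocyte precursor markers was 633 to 652 at 144 h, against 1014 to 1131 at 24 h, and that of 10 SHH medulloblastoma markers was 77.1 to 78.9 at 144 h, against 36.1 to 37.9 at 24 h. The precursor sum is mostly Olig1 (mean 397 FPKM at 144 h, against 657 at 24 h) and Olig2 (201 against 382). Cspg4 was lower too (21.7 against 30.4), while Pdgfra was higher (21.4 against 6.54) and Sox10 stayed below 1 FPKM. The part of the marker levels in the fall of the ribosomal protein genes was not tested.

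CT-179 for 144 h was accompanied by higher values of the whole set, but its size rests on 1 library. With every library, all 76 genes had a positive log2 fold change, from 0.30 (Rpl4) to 0.78 (Rpl36a) with a median of 0.61, and in all 76 every CT-179 library was above every vehicle library, which held for 19.1% of all genes tested. None of the 76 passed the limma test after adjustment, where 0.512% of all genes were called higher. Once CT-179 144 h replicate 2 was left out, the median was 0.23, with a range of 0.12 (Rps2) to 0.40 (Rpl39), the spread narrowed, and 71 of 76 rose, 43 of the large and 28 of the small subunit, against 11.8% of all genes called higher. With median-of-ratios scaling in addition all 76 were called higher, against 22.3% of all genes. The lone pair of CT-179 libraries then carries the comparison. Rps2, Rpl38, Rpl36 and Rpl13 were among those that did not pass.

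Rpl36a, which sits near the exit site for tRNA, had 421, 1013 and 441 FPKM in CT-179 cells at 144 h, against 331, 338 and 330.4 FPKM in vehicle cells (0.78 ± 0.26, adjusted p = 0.12 with every library; 0.37 ± 0.032, adjusted p = 4.3e-05 without replicate 2). Rpl39, a small protein at the peptide exit tunnel, had 216, 431 and 202 FPKM in CT-179 cells, against 164, 167 and 146 FPKM in vehicle cells (without replicate 2, 0.40 ± 0.078, adjusted p = 0.0036). In both genes the lowest CT-179 library was above the highest vehicle library. Rps6 had 164, 283 and 166 FPKM in CT-179 cells, against 137, 136 and 135 FPKM in vehicle cells (without replicate 2, 0.28 ± 0.026, adjusted p = 5.8e-05). Rplp0 had 666, 1217 and 693 FPKM in CT-179 cells, against 578, 560.5 and 585 FPKM in vehicle cells (without replicate 2, 0.24 ± 0.034, adjusted p = 0.00065). Rpl22 had 131, 199 and 132 FPKM in CT-179 cells, against 115, 113 and 113 FPKM in vehicle cells (without replicate 2, 0.21 ± 0.026, adjusted p = 0.00032). Rpl11 had 113, 249.9 and 116 FPKM in CT-179 cells, against 95.5, 92.7 and 97.2 FPKM in vehicle cells (without replicate 2, 0.26 ± 0.030, adjusted p = 0.00018). Rps27 had 348, 1002 and 365 FPKM in CT-179 cells, against 316, 290.2 and 311 FPKM in vehicle cells (without replicate 2, 0.22, adjusted p = 0.012). In Rps6, Rplp0, Rpl22, Rpl11 and Rps27 the groups did not overlap. Rpl22, which changed least with time, differed between CT-179 and vehicle by about as much as the rest of the set. Without replicate 2, Rpl5 rose by 0.25, Rpsa by 0.21, Rpl3 by 0.20, Rps4x by 0.22 and Rpl4 by 0.18.

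**Figure D3:**
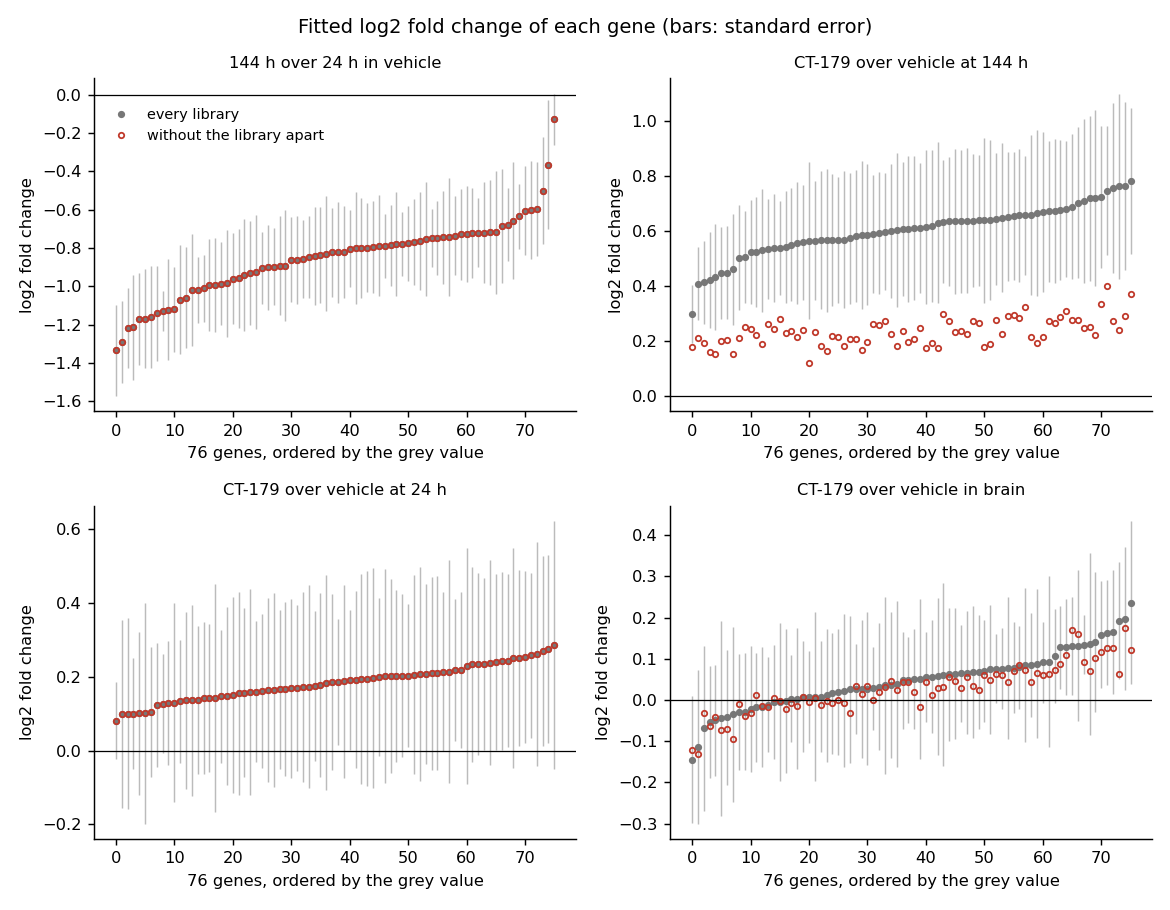
Fitted log2 fold change of each of the 76 genes in 4 comparisons, ordered within each panel. Grey points and bars are the fit with every library and its standard error. Red rings are the fit with a library left out, marked there as the library apart. In cells it is CT-179 144 h replicate 2, and in brain it is vehicle replicate 2, the shallowest brain library. All points are below 0 for time and above 0 for CT-179 in cells, the median at 144 h is 0.61 with every library and 0.23 without the library apart, and the brain values lie on both sides of 0.

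CT-179 for 24 h came with higher values of the whole set too. All 76 genes had a positive log2 fold change, from 0.08 (Rpl4) to 0.29 (Rps14) with a median of 0.19, and in 73 of them, all but Rpl19, Rpl23a and Rpl38, every CT-179 library was above every vehicle library, which held for 14.5% of all genes tested. In the fit of all 12 cell libraries no member passed the limma test and none had an unadjusted p under 0.05, and 0% of all genes were called higher. That fit takes its spread from all 4 cell groups: without CT-179 144 h replicate 2 the folds were the same and 71 of 76 rose, 42 of the large and 29 of the small subunit, against 8.08% of all genes. With median-of-ratios scaling in addition the count was 75 of 76, against 21.1% of all genes, and it was 66 of 76 where the 24 h libraries alone were fitted. The share of all genes called in that separate fit is not given here, so the 66 cannot be set against it. Without CT-179 144 h replicate 2 and vehicle 24 h replicate 3 together, an alternative chosen after the data were seen, the median was 0.16 and 75 of 76 rose, where 2814 of 12416 genes were called in either direction. Rpl4, Rpl23a, Rpl19 and Rpl38 were among those that did not pass.

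Rps6 had 319, 318 and 308 FPKM in CT-179 cells at 24 h, against 277, 282 and 271 FPKM in vehicle cells, which without CT-179 144 h replicate 2 gave 0.19 ± 0.024 and an adjusted p of 0.00055. Rplp0 had 1223, 1247 and 1221 FPKM in CT-179 cells, against 1098, 1088 and 1046 FPKM in vehicle cells (0.19 ± 0.031, adjusted p = 0.0018). Rps14 had 702, 733 and 677 FPKM in CT-179 cells, against 595, 599 and 539 FPKM in vehicle cells (0.29 ± 0.050, adjusted p = 0.0028). In Rps6, Rplp0 and Rps14 the CT-179 libraries all lay above the vehicle libraries. Rpl4 had 1100, 1094 and 1094 FPKM in CT-179 cells, against 1012, 1006 and 1092 FPKM in vehicle cells, where vehicle replicate 3 reached nearly the CT-179 level (0.08, adjusted p = 0.14). Without that 144 h library Rpl22, Rps4x, Rpl5, Rpl11 and Rpl3 each rose by 0.13 or 0.14, and Rpl37a, Rpl35a and Rps29 by 0.26 to 0.28.

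The members' mRNAs are short, with a main mRNA of 345 bases (Rps27) to 5154.5 bases (Rps15a) by the annotation used, and log2 fold changes under CT-179 went with gene length in these libraries. Over 11020 protein-coding genes (10998 without CT-179 144 h replicate 2), the log2 fold change at 144 h had a Spearman rho with exonic length of -0.68 with every library and of -0.44 without that one, and at 24 h one of -0.52. Over the 76 members rho was -0.26 and 0.03 at 144 h, with and without that library, and -0.02 at 24 h, all as descriptions of points that come from the same libraries. Set beside other protein-coding genes of like mRNA length and without CT-179 144 h replicate 2, all 76 members were above the median of their length class at 144 h and 70 of 76 at 24 h. The 2 members above 2500 bases in that annotation are Rps15a and Rps20. A main mRNA length can be a median over equally ranked transcripts, as the 5154.5 bases of Rps15a are. The length class of the longer members, and the contrasts in those classes, are therefore uncertain. At 144 h the 9 members under 500 bases had a median of 0.22, against 0.11 for other genes of that length, and the 26 members of 700 to 1000 bases had 0.25, against 0.11. The 7 members of 1500 to 2500 bases had a median of 0.21, against 0.03. At 24 h the differences were smaller, with 0.21 against 0.14 under 500 bases, 0.17 against 0.11 at 700 to 1000 bases and 0.17 against 0.03 at 1500 to 2500 bases. When, again without that library, the values were corrected in each library for its trend with main mRNA length, the members' median became 0.14 at 144 h, with 46 of 76 called higher (11% of all genes), and 0.088 at 24 h, with 23 of 76 called higher (6.61% of all genes). Corrected for exonic length, it was 0.17 at 144 h, with 58 of 76 called higher (10.9%), and 0.13 at 24 h, with 48 of 76 called higher (7.34%). After this exonic correction the members' own fold changes rose with their length. Their Spearman rho went from 0.03 to 0.63 for the later time and from -0.02 to 0.65 for the earlier one. With every library kept, it went from -0.26 to 0.82 for the later time. Shorter members were thus lowered more than longer ones, and the corrected medians and counts carry that. With every library kept, the correction for exonic length left 6 of 76 called higher at 144 h (1.41% of all genes) and that for main mRNA length 25 of 76 (3.21%). Corrected for main mRNA length the median change with time was -0.64, against -0.82 uncorrected, and 74 of 76 members fell with every library (38.6% of all genes) and all 76 without CT-179 144 h replicate 2 (44.5%). Corrected for exonic length, 74 of 76 fell (36.2% of all genes). None of the 76 was above the median of its length class in that comparison. Beyond these values the part of length in the CT-179 differences was not tested.

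**Figure D4:**
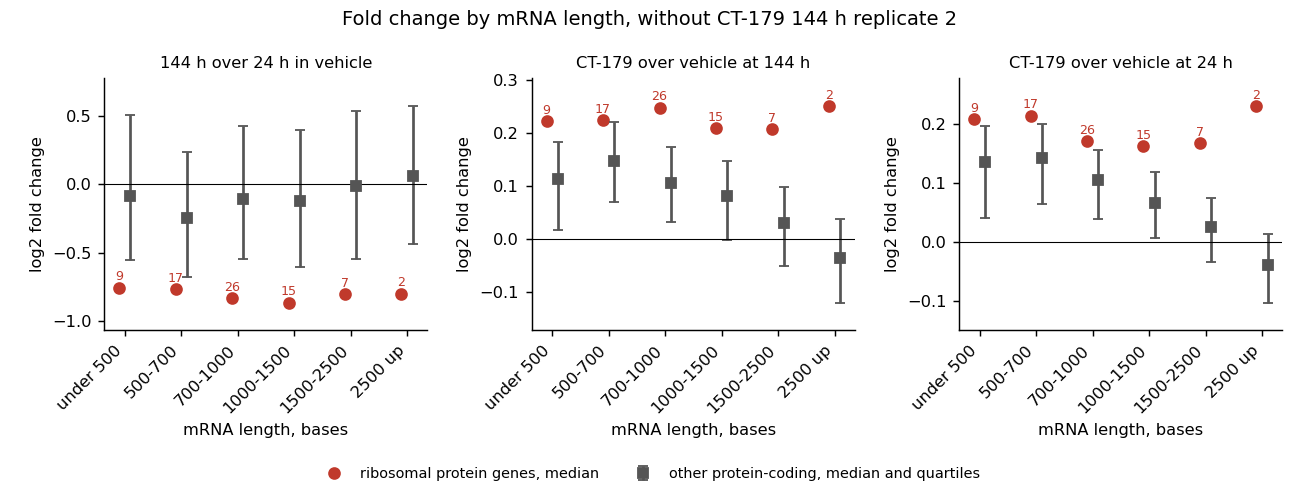
Median log2 fold change of the 76 genes (red, with their number in each class) and median with quartiles of all other protein-coding genes (grey) by main mRNA length in bases, fitted without CT-179 144 h replicate 2. The grey medians fall with length under CT-179 at both times, from 0.11 to -0.04 at 144 h and from 0.14 to -0.04 at 24 h, while the red medians stay between 0.21 and 0.25 and between 0.16 and 0.23.

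The CT-179 effect at 144 h differed past the test from that at 24 h in at most 1 member. The change of the effect (144 h minus 24 h) had a median of 0.41 with every library, where no member passed the limma test, none had an unadjusted p under 0.05 and 0% of all genes were called. When CT-179 144 h replicate 2 was left out, the median was 0.05, 63 of 76 were positive, and 1 member, Rpl36a, was called, at 0.22 ± 0.044 (adjusted p = 0.028, 1.2% of all genes called higher). It was also called with exonic length correction (1.24%) or median-of-ratios scaling (0.996%), and after the correction for mRNA length its adjusted p was 0.051 (1.2%). The 2 CT-179 effects share no library, but the fit shares 1 estimate of spread.

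Under CT-179 18 of 22 other TOP genes and 6 of 66 ribosome biogenesis genes rose at 144 h in the fit without CT-179 144 h replicate 2. There 11.8% of all genes rose and 16.9% fell at 144 h, and 8.08% rose and 14.1% fell at 24 h. Of the ribosome biogenesis genes 6 of 66 rose and 8 fell at 144 h (median 0.01), and 6 rose and 10 fell at 24 h (median -0.02). Of the 22 other TOP genes, 18 rose and 1 fell at 144 h (median 0.18), and 12 rose and 1, Eif4a2 at -0.37, fell at 24 h (median 0.09). Lists with no TOP mRNAs of their own but short transcripts rose too: 46 of 72 respiratory chain genes (median 0.16) and 20 of 35 proteasome subunits (median 0.10) at 144 h, and 49 of 72 (median 0.15) and 18 of 35 (median 0.10) at 24 h. Mitochondrial ribosomal proteins rose in 24 of 78 genes at 144 h and in 22 of 78 at 24 h. Of 9 chaperones and importers 1 rose at 144 h and none was called at 24 h. With every library no gene of these lists was called higher at either time.

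Among the regulators, no mTORC1 or LARP1 gene of 15 rose, and without CT-179 144 h replicate 2, 4 fell at 144 h, against 16.9% of all genes, and 5 at 24 h, against 14.1%. Larp1, which binds TOP mRNAs, fell by 0.19 at 144 h (adjusted p = 0.00059) and by 0.13 at 24 h (adjusted p = 0.0037). It had 19.6, 21.7 and 19.2 FPKM in CT-179 cells at 144 h, against 22.1, 22.2 and 22.4 FPKM in vehicle cells, with no overlap. At 24 h it had 42.4, 43.8 and 42.7 FPKM in CT-179 cells, against 47.2, 46.0 and 47.8 FPKM in vehicle cells. Rps6kb2, an S6 kinase, fell at 144 h with every library, by 0.34 (adjusted p = 0.012), where 3.37% of all genes fell. Mdm4, an inhibitor of p53, also fell at 144 h with every library, by 0.84 (adjusted p = 0.028), and by 0.57 without replicate 2. Of the ribosomal proteins outside the name rule, 5 of 8 rose at each time without that library. Fau (0.31) and Rps3a1 (0.19) rose at 144 h in that fit, and Rps27l had 0.19 and did not pass (adjusted p = 0.072). Rpl22l1, the paralog of Rpl22, had 52.1, 146 and 53.2 FPKM in CT-179 cells at 144 h, against 53.7, 50.3 and 52.9 FPKM in vehicle cells. Apart from replicate 2 these groups overlap, and its log2 fold change was 0.01 without that library (adjusted p = 0.85). At 24 h it rose by 0.20 in that fit (adjusted p = 0.0015), with 105, 108 and 106 FPKM in CT-179 cells, against 92.5, 89.0 and 95.4 FPKM in vehicle cells.

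**Figure D5:**
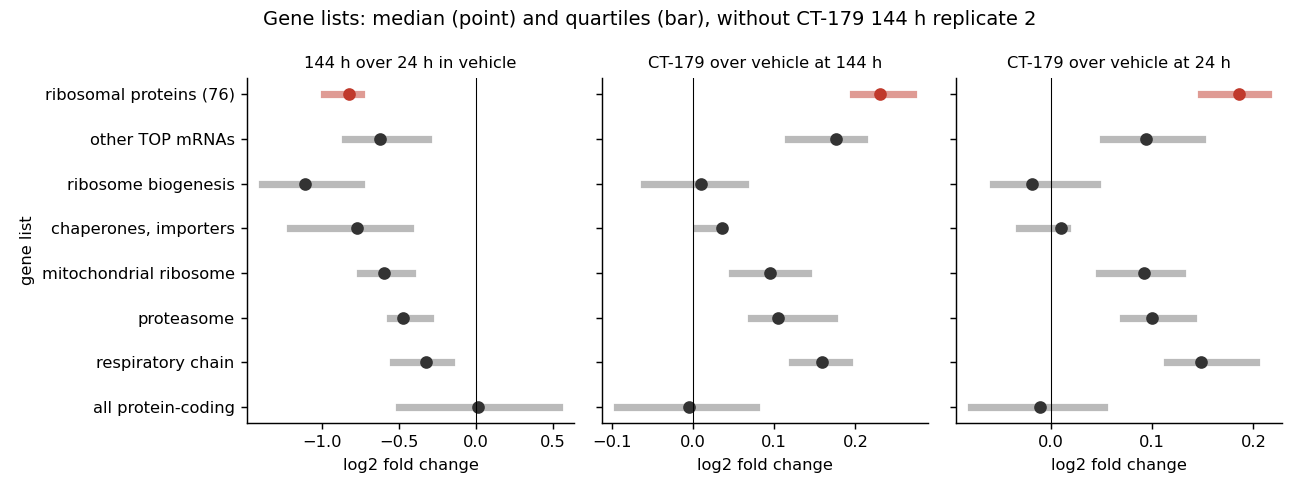
Median (point) and quartiles (bar) of the log2 fold change of the 76 genes (red), of 6 other lists and of all protein-coding genes tested, fitted without CT-179 144 h replicate 2. With time the biogenesis list lies lowest, at -1.11, and the ribosomal proteins at -0.82; under CT-179 the ribosomal proteins lie highest, at 0.23 and 0.19, with the biogenesis list near 0.

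Marker levels also differed between CT-179 and vehicle cells. The summed SHH medulloblastoma markers, 6 of 10 at 1 FPKM or more at 144 h and 5 of 10 at 24 h, were 40.3 to 65.0 FPKM in CT-179 cells at 144 h, against 77.1 to 78.9 FPKM in vehicle cells, and 32.5 to 34.6 FPKM in CT-179 cells at 24 h, against 36.1 to 37.9 FPKM in vehicle cells. Summed oligodendrocyte precursor markers were 695 to 824 FPKM in CT-179 cells at 144 h, against 633 to 652 FPKM in vehicle cells, and overlapped at 24 h. Olig1 carried this difference in the 144 h group means, which include CT-179 replicate 2. Its mean was 511 FPKM in CT-179 cells, against 397 FPKM in vehicle cells. Olig2 was level (203 against 201 FPKM) and Sox10 was below 1 FPKM. Cspg4 (13.4 against 21.7 FPKM) and Pdgfra (17.3 against 21.4 FPKM) were lower under CT-179. No marker value is given without CT-179 144 h replicate 2, so the part of that library in the marker differences is not shown. The part of the marker levels in the ribosomal protein values was not tested.

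The brain libraries showed no CT-179 difference of the set beyond the spread between libraries. The median log2 fold change was 0.05, from -0.14 ± 0.15 (Rps19) to 0.24 ± 0.20 (Rpl35a), with 59 of 76 genes positive. No member passed the limma test, none had an unadjusted p under 0.05, and 0% of all genes were called. Of the 76 genes 1, Rpl15, had every CT-179 library above every vehicle library, against 5.71% of all genes, and none had every one below, against 4.6%. Rpl15 had 61.9, 62.3 and 59.9 FPKM in CT-179 brains, against 57.6, 52.7 and 57.3 FPKM in vehicle brains. Without vehicle replicate 2 the median was 0.03 and no member was called, where 0.00754% of all genes were called higher and 0% lower. Corrected for main mRNA length the median was -0.01, and 32 of 76 members were above the median of their length class. With values set to a common total of length-scaled expression (TPM), the median was -0.04.

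The members moved together from brain to brain within each group. CT-179 replicate 1 was the highest of the 6 brains in 70 of 76 genes and vehicle replicate 3 in 4. The summed FPKM of all genes was also highest in CT-179 replicate 1, at 438169, against 352957 to 388103 in the other brains. As a share of all FPKM the members were highest in vehicle replicate 3, at 5.14%, against 4.88% in CT-179 replicate 1. The lowest was CT-179 replicate 2 in 37 genes, vehicle replicate 1 in 33 and vehicle replicate 2 in 6. The shares of all genes that were highest or lowest in each brain are not given here, so these counts cannot be set against them. Rplp1 had 1281, 839 and 951 FPKM in CT-179 brains, against 835, 930.0 and 1167 FPKM in vehicle brains. Rpl35a had 64.9, 40.5 and 47.3 FPKM in CT-179 brains, against 39.1, 35.8 and 53.7 FPKM in vehicle brains. Rps19, whose loss in humans is linked to Diamond-Blackfan anaemia, had 101, 70.0 and 81.9 FPKM in CT-179 brains, against 78.7, 95.5 and 105 FPKM in vehicle brains. In each of Rplp1, Rpl35a and Rps19 the groups overlapped, with CT-179 replicate 1 and vehicle replicate 3 the highest of their groups. Rps6 (0.08), Rpsa (0.07), Rpl5 (0.07), Rpl11 (0.16), Rpl22 (0.06), Rpl39 (0.16), Rps27 (0.20) and Rplp0 (0.003) had log2 fold changes within 2 standard errors of 0. No gene of the other lists was called in brain either. In the authors' deposited table for brain, which sets vehicle replicates 1 and 3 over the 3 CT-179 brains and so runs the other way, the 76 genes had log2 fold changes of -0.18 to 0.12 and none had an FDR under 0.05, where 17 of 19464 genes did.

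Members with and without the start-site features had close median fold changes. A member counted as having the run only where it begins within 10 bases of the annotated start, so these classes depend on that annotation. Without CT-179 144 h replicate 2, the median log2 fold change at 144 h was 0.23 for the 31 members with a pyrimidine run in the RefSeq window and 0.24 for the 25 without, and at 24 h it was 0.18 with the run and 0.19 without. With time it was -0.86 with the run and -0.82 without. Members with the letters CCGGAAG had a median of -0.93 with time (22 genes), against -0.80 for those without (34 genes).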

How the data were processed

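The members, gene lists and tests were chosen with earlier results of these data known. Total RNA was sequenced as paired reads after SMARTer library preparation, per the labels' protocols. The submitters' processing notes name, with the mouse build mm10, edgeR 3.28.1, HTSeq 0.6.1p2, R 3.6, STAR 2.6.0c and Trim Galore 0.5.0. The authors deposited FPKM per gene and, for brain, a table of log2 fold change, log2 CPM, a likelihood ratio score, p-value and FDR, which is quoted only as the authors' own.

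Here, log2(FPKM + 1) was tested with limma 3.58.1 (R 4.3.3, trended variance) over genes with at least 1 FPKM in 3 or more libraries. One fit held the 12 cell libraries (12510 genes) and a second one the 6 brain libraries (13422 genes). P-values were two-sided, Benjamini-Hochberg adjusted over all genes of a fit, and called under 0.05. The code was tested on simulated data. Main mRNA length is the median length of the best-ranked GENCODE M21 transcripts. Length corrections removed, in each library, a lowess trend (span 0.5 for exonic length, 0.2 for mRNA length), and the mRNA length correction was added after the data were seen. Named genes were a fixed set of members and related genes, the extremes by fold, level or p in each comparison, and up to 3 genes per further list by p. Others, such as Rpl36al, Rps14 at 24 h and the members that missed a threshold, were named after their values were seen. Same-numbered libraries correlated, as deviations from their group means, at 0.109, 0.241 and 0.138 between CT-179 cells at 144 h and at 24 h, but no groups compared directly had all 3 correlations above 0.1, so replicate numbers were not taken to pair libraries. Promoter stretches are RefSeq sequences of GRCm38.p6. Values of some genes are not reported here by name.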

Additional observations from a re-analysis of the deposited data

How the results depend on the processing

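For CT-179 at 24 h, no member was called with every library in the main setting, and the count was 76 with array weights, 71 without CT-179 144 h replicate 2, 75 without it and with median-of-ratios scaling, 48 without it and with exonic length correction, 23 without it and with mRNA length correction, and 66 in a separate fit of the 6 libraries. The median of 0.19 became 0.24 with median-of-ratios scaling (0.25 without that library), 0.13 with TPM scaling, 0.13 with exonic length correction (0.13 without that library) and 0.088 with mRNA length correction (0.088 without it). For CT-179 at 144 h, the count of 0 became 6 with exonic length correction, 25 with mRNA length correction and 76 with array weights, and without replicate 2 it was 76 with median-of-ratios scaling, 58 with exonic length correction and 46 with mRNA length correction. Leaving out 1 library at a time gave 0 to 71 members, with 3 without CT-179 replicate 1 and 71 without CT-179 replicate 2. The median of 0.61 became 0.19 with mRNA length correction, and without replicate 2 it was 0.17 with exonic and 0.14 with mRNA length correction. For the effect at 144 h minus that at 24 h, 1 member was called with array weights (median 0.077), and without replicate 2 alone (0.054), with median-of-ratios scaling (0.047) or with exonic length correction (0.038); with mRNA length correction the median was 0.046. Leaving out 1 library at a time gave medians of 0.054 to 0.60. Rpl22l1 in that difference turned sign, at -0.21 with array weights, -0.21 without replicate 2 and with length correction and -0.22 without it and vehicle 24 h replicate 3, against 0.29 in the main setting. Without CT-179 144 h replicate 2 and vehicle 24 h replicate 3 together, 75 members were called at 24 h, 76 at 144 h and 1 for the difference (median 0.070). For 144 h over 24 h in vehicle, the median of -0.82 became -0.72 with TPM scaling and -0.64 with mRNA length correction (-0.64 without the library apart), and 25 members were called relative to the members' own median. The median of all genes at 144 h was -0.20 with TPM scaling, against -0.05 as deposited. With protein-coding, not mitochondrially encoded, genes as the total, the members' mean share was 5.44% in CT-179 brain and 5.45% in vehicle brain, 12.9% in CT-179 cells at 24 h, 11.8% in vehicle cells at 24 h and 7.0% in vehicle cells at 144 h. With the replicate number as a block, 66 members fell with time, no member was called for CT-179 in cells or brain, and no other call on the set changed. Counts with array weights, with the block, in the separate fit and relative to the members' own median are given without the share of all genes called. The same holds for leaving out any 1 cell library other than CT-179 144 h replicate 2. It also holds for the 144 h and difference counts without that library and vehicle 24 h replicate 3 together. None of these counts can be set against that share. The cause of these moves was not tested, beyond the loss of spread that follows when the library apart is left out or down-weighted. The lowest member value rests on 387 implied fragments, an approximate number.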
